A study of Mus musculus with 2 samples.

Results

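The Clca genes (chloride channel accessory) were followed through 2 single-cell libraries of whole mouse uterus. The 5 members, Clca1, Clca2, Clca3a1, Clca3a2 and Clca3b, were taken by symbol from the 32285 genes listed in both matrices, and all 5 were found. They were chosen by their measured levels in the epithelial cells of these libraries, so those levels are given as a description. The control library came from Prickle1 f/f mice, in which Prickle1, a gene of planar cell polarity, carries floxed alleles. The cKO library came from Prickle1 f/f Ltf-cre mice, in which a Cre recombinase driven by the lactoferrin gene Ltf, which is active in uterine epithelium, was added to the same floxed alleles. Both libraries were pools of 3 females aged 6 months, and a separate genotype label calls both wild-type on C57BL/6J, which differs from their titles. With 1 library per group there is no replicate and no test, and genotype, animals and library preparation cannot be told apart. All 95% intervals below cover counting error only.

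CLCA proteins take their name from calcium-activated chloride conductance, but they are not channels themselves. The CLCA1 protein is secreted, cuts itself with its own metalloprotease domain, raises the current through the calcium-activated chloride channel anoctamin 1 (gene Ano1), and is best known from goblet cells, where it accompanies mucus and is induced by the type 2 cytokine interleukin 13. CLCA2 stays anchored in the membrane and is known from stratified epithelia and as a target of p53. Clca3a1, Clca3a2 and Clca3b belong to a branch of the family that is expanded in rodents, and the product of Clca3a1 is known as a surface protein of lymphatic endothelium.

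The 5 members lie together on the minus strand of chromosome 3 (GRCm38, GENCODE M21). The 8 annotated Clca genes span chr3:144729677-145099443, between Sh3glb1 and Odf2l. In order they are Clca3a1 (chr3:144729677-144760977), Clca3a2 (chr3:144796559-144819494), Clca3b (chr3:144822623-144849357), the pseudogene Clca4c-ps, Clca4b, Clca4a, Clca1 (chr3:145003817-145032776) and Clca2 (chr3:145070263-145099443). Clca3a2 and Clca3b are the closest neighbours among the members, with 3128 bases between them.

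Their transcripts differ in how far reads can be told apart. The reference transcripts of Clca3a1 and Clca3a2 were 96.2% identical over 3434 aligned bases, and 26 of 451 words of 50 bases in the last 500 bases of Clca3a1 were also found in Clca3a2. Counts of this pair are therefore uncertain where reads fall on shared stretches. Clca3b was 87.2% identical to Clca3a2 and shared no 50-base word with either relative in its last 500 bases, where 3′-end reads fall. Clca1 and Clca2 matched the other members only in short stretches. The antisense genes Gm34866 and Gm43240 lie within Clca3a1 and Clca3a2.

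The upstream sequences of the Clca3 genes are shown as a description of letters, and their part in the overlap of transcripts described below was not tested. RefSeq windows of 300 bases around the start site (GRCm38.p6) were at hand for 4 of the 5 members. Clca3a2 and Clca3b shared runs of 39 and 79 bases in these windows, while the longest run shared by any other pair was 7 or 8 bases. The windows reach 50 bases past the RefSeq start, and part of the 39-base run lies within the GENCODE gene of Clca3b. The place of the 79-base run is not given, so it may hold transcribed bases. Capitals mark 22 bases of the 39-base run in Clca3b and Clca3a2, and a TA repeat in Clca3a1. The stretches are chr3:144849358-144849552, chr3:144819542-144819571 and chr3:144760978-144761077, all minus strand, written 5′ to 3′.
Clca3b: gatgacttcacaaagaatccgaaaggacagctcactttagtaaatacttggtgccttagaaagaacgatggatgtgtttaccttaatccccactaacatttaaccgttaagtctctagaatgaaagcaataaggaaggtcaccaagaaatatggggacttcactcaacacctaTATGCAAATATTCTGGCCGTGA
Clca3a2: tatcaaatTATGCAAATATTCTGGCCGTGA
Clca3a1: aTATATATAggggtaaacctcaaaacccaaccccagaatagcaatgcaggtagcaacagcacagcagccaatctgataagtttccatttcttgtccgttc
The capitals hold the octamer motif ATGCAAAT, whose first base lies 76 bases before the RefSeq start of Clca3b and 68 bases before that of Clca3a2. The GENCODE gene of Clca3b starts farther upstream. The last base printed for Clca3b adjoins that gene and lies 56 bases before the RefSeq start. By GENCODE the octamer thus lies closer to Clca3b than 76 bases. Searched on both strands, the octamer occurs in 1.74% of 32851 mouse windows of that length. The forkhead motif TGTTTAC was matched 176 bases before the RefSeq start of Clca3b and occurs in 3.65% of windows. The full oestrogen response element (palindrome of GGTCA), the STAT6 motif (TTC and GAA with a gap) and TATAAA were not matched in the 4 windows, against 0.0700%, 6.95% and 13.6% of all windows. A match describes letters and is not a shown binding site.

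The libraries held 45035801 UMIs (unique molecular identifiers, each a counted RNA molecule) in control and 57145553 in cKO. Cells were barcodes with at least 500 genes and at most 20% mitochondrial UMIs, 3653 in control and 4950 in cKO, with median depths of 4650 and 5944 UMIs, and 5 cell barcodes were shared by both libraries. The epithelial gate, at least 1 Epcam UMI and 0 Ptprc UMIs, took 998 control cells (27.3%) and 130 cKO cells (2.63%). All 12 epithelial markers were present in both gates, at a summed 16121 CPM (UMIs of the gene scaled to a common total of UMIs) in control and 9813 CPM in cKO, but the 10 fibroblast markers stood at 597 and 5500 CPM. Markers of other cells were also higher in the cKO gate, at 32.3 and 540 CPM for 5 mesothelial, 65.8 and 481 CPM for 6 smooth muscle and 37.7 and 313 CPM for 7 lymphatic markers. Pdgfra UMIs were found in 36 of the control and 27 of the cKO gate cells, and the part of such cells in the results is given where it was measured. Median depth in the gate was 6459.5 UMIs in control and 17410.5 in cKO, so values at matched depth are given beside the totals. Prickle1 itself was counted at 0.879 CPM (16 UMIs) in the control gate and 4.28 CPM (19 UMIs) in the cKO gate. These 3′-end reads need not fall in the deleted part, so the count does not check the deletion.

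Clca1 was the most abundant member in the epithelial gate, and 94.7% of its UMIs in control cells lay there. In the control gate it was counted 14231 times, a level of 781 CPM (interval 769 to 794), in 609 of 998 cells (61.0%). In the cKO gate it was counted 32 times, 7.21 CPM (4.93 to 10.2), in 9 of 130 cells (6.92%). Control exceeded cKO 108-fold (76.7 to 158), a log2 ratio of cKO to control of -6.76 (-7.31 to -6.26). When each cell was thinned to 1000 UMIs, Clca1 was seen in 277 of 990 control cells (28.0%, 25.2 to 30.9) and 3 of 130 cKO cells (2.31%, 0.478 to 6.60).

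The per-cell counts show how unevenly Clca1 was spread. Of the 609 positive control cells, 128 held a single UMI and 227 held more than 10. The highest cell held 537, which was 3.77% of the total, and 43 cells supplied 50% of all Clca1 UMIs in the gate. The 9 positive cKO cells held 14, 8, 2, 2, 2, 1, 1, 1 and 1 UMIs. The cells with 14 and 8 UMIs also held 1 Pdgfra UMI each, and they supplied 22 of the 32 UMIs. They were deep cells, of 103794 and 52574 UMIs, with 57 and 20 Epcam and 231 and 55 Krt8 UMIs. Leaving out Pdgfra-positive cells removes both of these cells. Without Pdgfra-positive cells in either library control stood at 781 CPM and cKO at 2.78 CPM, with control 281-fold higher (153 to 587). That removal left fibroblast markers at 305 CPM in control and 4647 CPM in cKO, so most of the mixture in the cKO gate remained. Another 9 cKO UMIs lay in 2 cells with both Epcam and Ptprc, so that 41 Clca1 UMIs were found among all 4950 cKO cells, against 15034 among 3653 control cells.

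**Figure D1:**
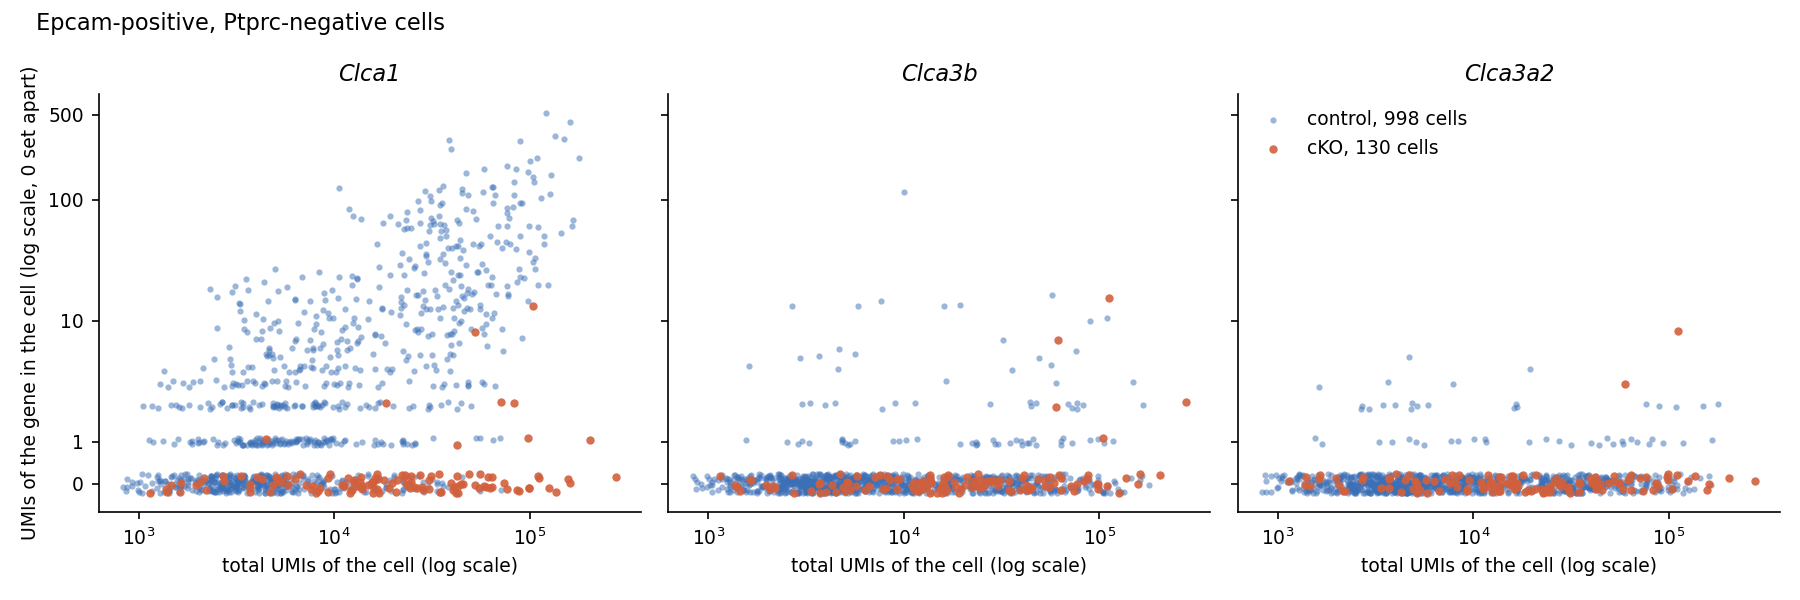
UMIs of Clca1, Clca3b and Clca3a2 in each epithelial-gate cell (y axis, log scale with 0 set apart and slight jitter) against the cell's total UMIs (x axis, log scale), 998 control and 130 cKO cells. Clca1 reached 537 UMIs in a control cell and 14 in a cKO cell, while the 5 cKO cells with Clca3b and the 2 with Clca3a2 are among the deepest cells.

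The difference in Clca1 was also measured at matched depth. The control gate was divided into 4 depth ranges with limits at 3382.5, 6459.5 and 23392 UMIs per cell. Control levels of Clca1 were 449, 425, 585 and 871 CPM from the shallowest to the deepest range, and 75 of 250 cells in the shallowest range held it, against 49.4%, 73.1% and 91.6% in the deeper ones. The same ranges held 13, 15, 47 and 55 cKO cells, of which 0, 1, 1 and 7 had a Clca1 UMI. In the deepest range, where median depths were 43173 and 52349 UMIs, control stood at 871 CPM and cKO at 7.90 CPM, and control was 110-fold higher (76.7 to 165). In the third range control was 196-fold higher (54.2 to 1621) and in the second 30.6-fold (5.47 to 1211), from 2 and 1 cKO UMIs. In the thinned cells of all depths the log2 ratio of cKO to control was -4.38, from 3 cKO UMIs. With so few UMIs this value depends on the draw. Another random thinning found Clca1 in 0.769% of cKO cells rather than 2.31%. The mean over cells, unthinned, gave a log2 ratio of -6.70.

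Clca1 outside the epithelial gate was low where other cell types were gated. It was counted at 1.07 CPM (9 UMIs in 7 of 636 cells) in control stroma (Pdgfra-positive) and 2.33 CPM (14 UMIs in 13 of 725 cells) in control immune cells (Ptprc-positive), with median depths of 11859 and 6431 UMIs. Both cKO gates had 0 UMIs, in 1487 stromal and 1721 immune cells. Barcodes with at most 100 UMIs, which hold free RNA, carried Clca1 at 235 CPM in control and 0.438 CPM in cKO, so the free-RNA level differed in the same direction as the cells. From 5 stromal genes, at 512 CPM in the control gate and 1616 CPM in control cell-free barcodes, at most 31.7% of the UMIs of that gate could be free RNA, and its part in cells with 1 Clca1 UMI was not tested. The share of thinned control stromal cells with a UMI was 0.320% and that of immune cells 0.140%, against 28.0% in the epithelial gate.

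The edges of the gate were graded. Control cells with exactly 1 Epcam UMI held 252 CPM of Clca1 (269 cells), those with 2 or more held 819 CPM (729 cells), and cells with no Epcam, Ptprc or Pdgfra UMI held 52.8 CPM (1244 cells). A further 155 control cells of the Epcam gate exceeded 20% mitochondrial UMIs and held 954 CPM, while the cKO library had no such cell.

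**Figure D2:**
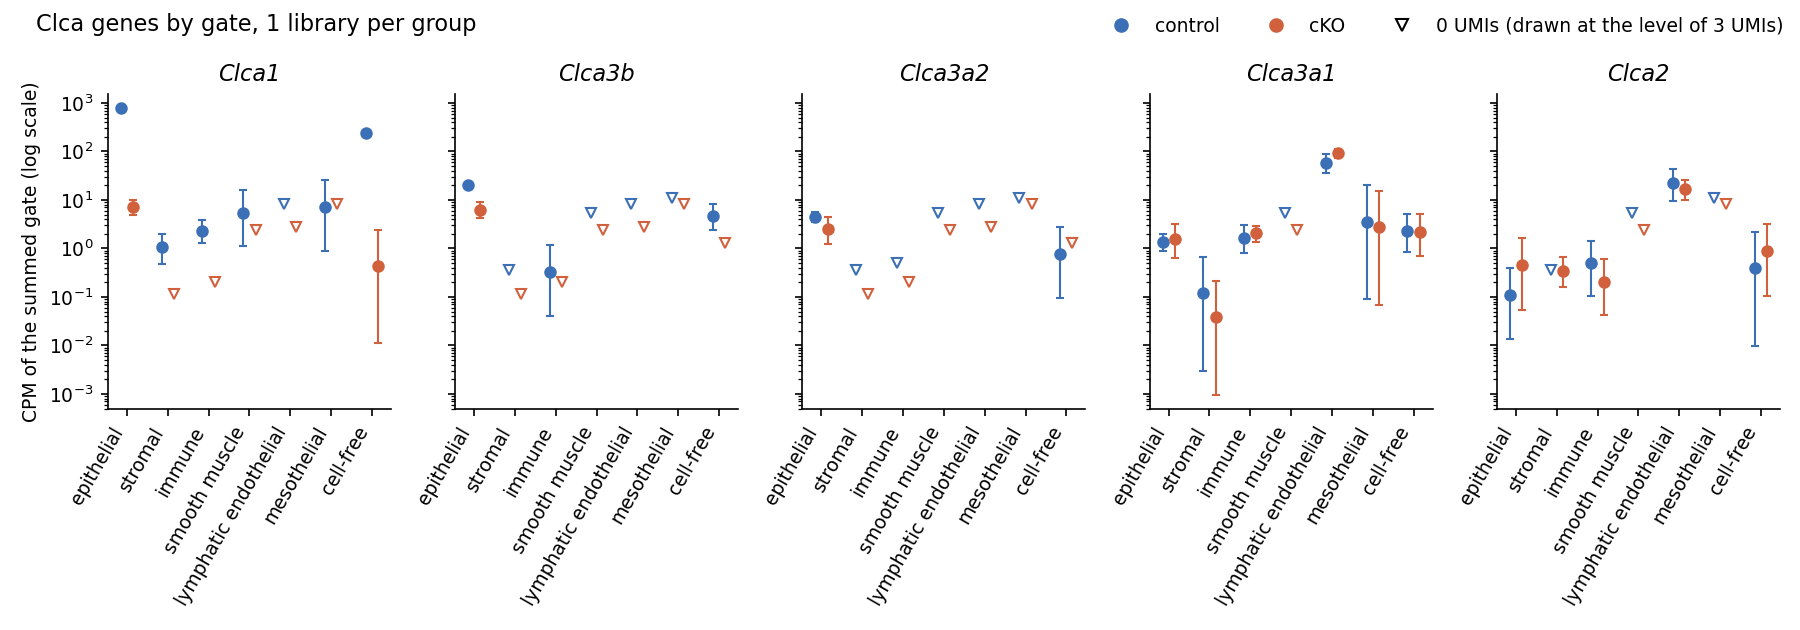
CPM of the 5 members in 6 cell gates and in cell-free barcodes (y axis, log scale), 1 library per group, bars the exact Poisson 95% interval and open triangles a count of 0 drawn at the level of 3 UMIs. Among the 6 plotted cell gates, Clca1, Clca3b and Clca3a2 are highest in the epithelial gate and Clca3a1 and Clca2 in the lymphatic endothelial gate.

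Clca3b came next in level. In the control epithelial gate it was counted 368 times, 20.2 CPM (18.2 to 22.4), in 80 of 998 cells (8.02%). In the cKO gate it was counted 28 times, 6.31 CPM (4.19 to 9.12), in 5 of 130 cells (3.85%), which held 16, 7, 2, 2 and 1 UMIs. Control exceeded cKO 3.20-fold (2.18 to 4.89). Few cells carried the gene in either library: the highest control cell held 124 UMIs (33.7% of the total), and the highest cKO cell held 57.1%.

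The levels of Clca3b at matched depth differed between the depth ranges. In the deepest range control stood at 8.20 CPM in 250 cells and cKO at 7.63 CPM in 55 cells, and the ratio of control to cKO was 1.07 (0.704 to 1.69). In the 3 shallower ranges control stood at 55.9, 38.5 and 59.4 CPM and the cKO cells held 0 UMIs. In the last of these, to which the 124-UMI cell belongs, control was at least 13.3-fold higher against a limit of 3 counts in 47 cKO cells. In the first and second ranges the 13 and 15 cKO cells were too few for a level as high as that of control to show, because 3 counts there amount to 116 and 41.7 CPM. Clca3b was at 0 in the stromal, smooth muscle, lymphatic endothelial and mesothelial gates of both libraries, and 2 UMIs lay in 1 control immune cell. Control cells that fell in no gate held 50 UMIs in 16 cells (17.8 CPM, near the 20.2 CPM of the epithelial gate), and control cells with both Epcam and Ptprc held 28 UMIs in 3 of 50 cells (24.2 CPM).

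Clca3a2 followed the same layout at a lower level. It was counted 81 times in the control gate, 4.45 CPM (3.53 to 5.53), in 51 of 998 cells with at most 5 UMIs in any cell. The cKO gate held 11 UMIs, 2.48 CPM (1.24 to 4.44), and 8 and 3 of them lay in 2 cells. The ratio of control to cKO was 1.79, with an interval (0.951 to 3.74) that includes 1. Control levels were 20.9, 20.5, 6.23 and 1.94 CPM from the shallowest to the deepest range, and cKO stood at 3.00 CPM in the deepest, with a ratio of control to cKO of 0.646 (0.309 to 1.45). No UMI of Clca3a2 was found in the stromal, immune, smooth muscle, lymphatic endothelial or mesothelial gates of either library. Control cells in no gate held 11 UMIs (3.93 CPM), and cells with both Epcam and Ptprc held 8 UMIs in control (6.91 CPM) and 6 in cKO (5.29 CPM).

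**Figure D3:**
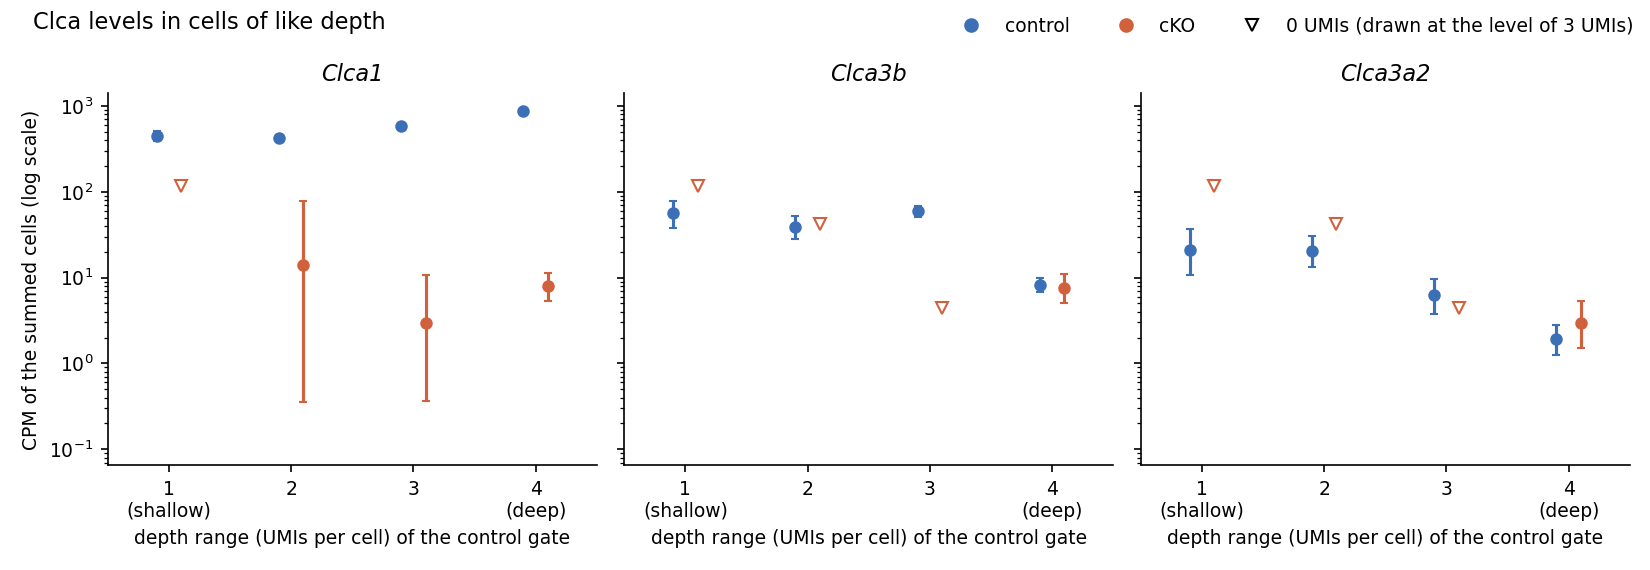
CPM of Clca1, Clca3b and Clca3a2 (y axis, log scale) in the 4 depth ranges of the control epithelial gate (x axis), bars the exact Poisson 95% interval and open triangles a count of 0 drawn at the level of 3 UMIs. Clca1 is lower in cKO in each range where cKO cells hold it, and Clca3b and Clca3a2 have overlapping intervals in the deepest range.

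Clca3a1 had another address. In the epithelial gate it was counted 25 times in control, 1.37 CPM (0.888 to 2.03), and 7 times in cKO, 1.58 CPM (0.634 to 3.25), a ratio of cKO to control of 1.15 (0.420 to 2.73). In the lymphatic endothelial gate, cells with at least 2 of Prox1, Lyve1, Flt4, Mmrn1 and Ccl21a and no Epcam or Ptprc, it was counted 21 times in 9 of 23 control cells and 100 times in 24 of 39 cKO cells. These are 58.4 CPM (36.1 to 89.2) for control and 92.1 CPM (74.9 to 112) for cKO, and the interval of their ratio of 1.58 (0.978 to 2.66) includes 1. The gate held Prox1, the lymphatic transcription factor, at 1551 CPM in control and 2195 CPM in cKO.

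All cells with a Clca3a1 UMI, in any gate, were examined after their values were seen. Of all 41 cKO cells with a Clca3a1 UMI, 29 (70.7%) held at least 2 of the 5 lymphatic markers, and they carried 76.2% of the UMIs. In control it was 11 of 40 cells (27.5%) with 39.4% of the UMIs, and 20 of the 40 lay in the epithelial gate. These counts include the 24 cKO and 9 control cells of the lymphatic gate, which hold 2 markers by definition, so the shares largely restate that gate. Of cells without Clca3a1, 0.387% in control and 0.407% in cKO held 2 such markers. The 30 cKO UMIs in the immune gate lay in 8 cells, 4 of which also held 2 lymphatic markers.

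Clca2, the membrane-anchored member, was rare. Among all cells it was counted 14 times in 4 control cells and 30 times in 12 cKO cells. The epithelial gate held 2 UMIs in 1 cell of each library, too few to compare. The lymphatic endothelial gate held 8 UMIs in 1 of 23 control cells and 18 UMIs in 7 of 39 cKO cells, 22.2 and 16.6 CPM (ratio of cKO to control 0.745, 0.308 to 1.98). Of the 12 cKO cells, 10 held at least 2 lymphatic markers, among them the 7 of the lymphatic gate, which hold 2 by definition. Of those 7 cells, 5 also held Clca3a1, where the product of both shares gives 4.31 cells.

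Between genes, Clca3a2 and Clca3b were found together in cells. In the control gate 30 cells held both, 58.8% of the 51 Clca3a2 cells and 37.5% of the 80 Clca3b cells, where the product of both shares gives 4.09 cells. Pearson's r of their log counts over the 998 cells was 0.56, a description over cells that differ in depth. In cells thinned to 1000 UMIs, 4 held both of 12 and 22 (0.267 by the shares, r = 0.26), and in cells thinned to 3000 UMIs, 9 of 16 and 25. Within the 4 depth ranges the cells with both were 5, 6, 6 and 13, among Clca3b cells numbering 10, 14, 15 and 41. Both cKO cells with Clca3a2 held Clca3b too.

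Clca3a1, where it appeared in epithelium, lay with the same pair. Of the 20 control epithelial cells with Clca3a1, 9 held Clca3a2 and 11 held Clca3b, against 5.11% and 8.02% of all gate cells. In cells thinned to 1000 UMIs 1 of 4 Clca3a1 cells held each of the other genes, and in the deepest range, not thinned, 2 of 7 held Clca3a2 and 3 of 7 held Clca3b. The near-identity of Clca3a1 and Clca3a2 means that reads of one may be counted for the other, and the part of this in the overlap was not tested.

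Clca1, which many cells hold, was also set against Clca3b. In thinned cells 10 of 22 Clca3b cells held Clca1 (45.5%) against 28.0% of all cells (r = 0.02). In cells thinned to 3000 UMIs it was 15 of 25 against 403 of 801. In the deepest range 40 of 41 Clca3b cells held Clca1 against 91.6% of all. The 124-UMI Clca3b cell held 0 Clca1 UMIs. In cKO 1 of the 9 Clca1 cells held Clca3b.

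**Figure D4:**
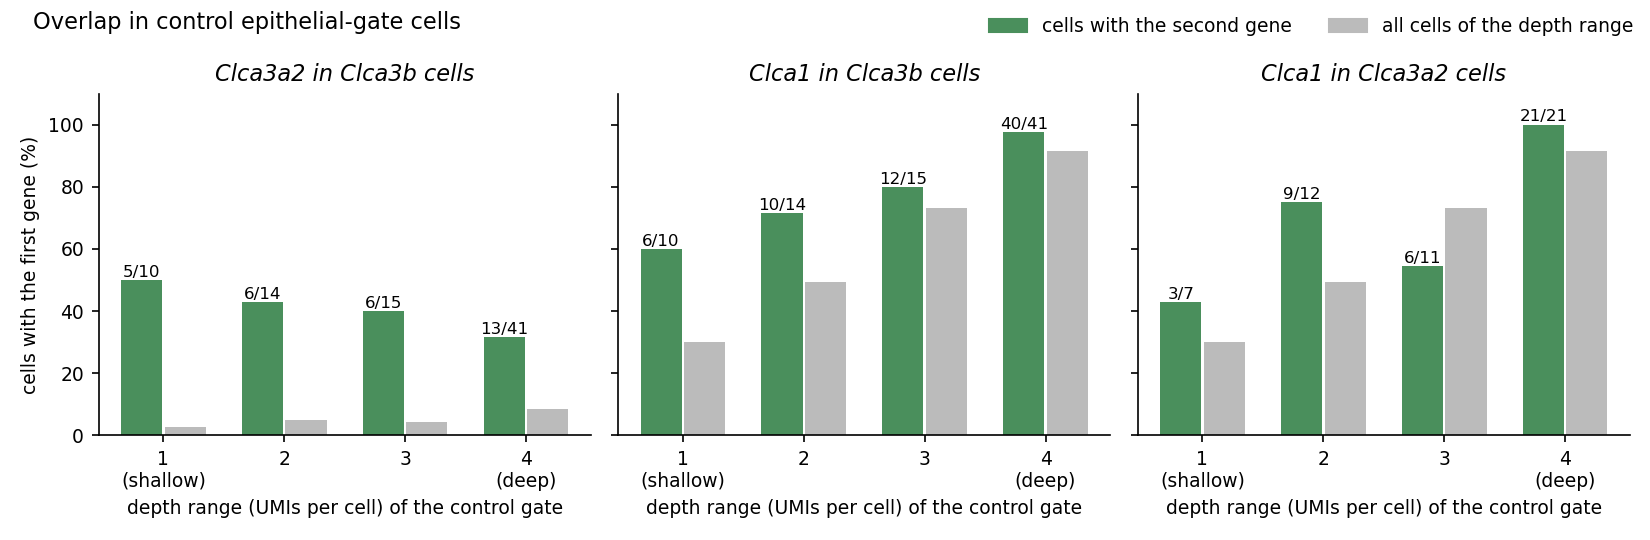
Share of control epithelial-gate cells with the first-named gene (y axis, percent) among cells with the second gene (green, with counts) and among all cells (grey), in 4 depth ranges (x axis). For Clca3a2 in Clca3b cells the green bars stand at 5 of 10, 6 of 14, 6 of 15 and 13 of 41 cells, against grey bars of 2.80% to 8.40%, while for Clca1 in Clca3b cells both bars rise with depth, and in Clca3a2 cells the third range holds 6 of 11.

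Cells with Clca3a2 or Clca3b differed from the other control gate cells in a small set of genes. This split was added after the values were seen. The 101 cells with either gene were set against the 897 others, with the others' rates weighted to the same depth ranges, and 0.816% of 8949 genes were at least 2-fold higher and 1.78% at least 2-fold lower. Of 12 measured genes of stratified epithelium, 2 were past 2-fold, both higher (median log2 ratio 0.31, against -0.019 over all genes). Proliferation genes gave the same count of 14 (median 0.21), the oestrogen and chloride lists 2 higher and 1 lower each, of 24 and 32, and the mucus list 1 higher of 15. Krt6a, a keratin of stressed and stratified epithelium, stood at 219.8 CPM against an expected 56.1, though in only 20 of the 101 cells. Sprr2d, a small proline-rich protein of the cornified envelope, stood at 664 against 112 CPM, in 34 cells, with 30.4% of the UMIs in 1 cell. The glutathione synthesis subunit Gclm, named after its value was seen, stood at 239 against 109 CPM in 58 cells. Krt8, Epcam and Clca1 differed little, at log2 ratios of 0.042, 0.22 and 0.23. Without the 124-UMI cell the shares over all genes were 0.772% higher and 1.78% lower.

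Cells with Clca1 were set against those without in the same way, also after the values were seen. The 609 cells with Clca1 and the 389 without differed widely: of 9712 genes, 8.17% were at least 2-fold higher and 19.8% at least 2-fold lower in the Clca1 cells (median log2 ratio -0.19). Of 16 measured mucus and secretory genes, 8 were past 2-fold higher and 2 past 2-fold lower (median 1.28), and of 24 oestrogen response genes 14 were higher and 3 lower (median 1.41). Stratified epithelium genes were higher in 11 and lower in 4 of 15 (median 1.34), and chloride and fluid transport genes higher in 11 and lower in 6 of 33 (median 0.46). Progesterone response genes were higher in 1 and lower in 7 of 13 (median -1.28), and p53 targets higher in 2 and lower in 7 of 20 (median -0.50). The type 2 cytokine list gave 3 higher and 3 lower of 11 (median 0.48), and proliferation genes 4 higher and 2 lower of 9 (median 0.91). Cftr, the chloride channel of secretory epithelium, stood at 51.6 CPM against an expected 10.1, and the carbonic anhydrase Car2 at 326 against 55.0 CPM. Weighted to the same depth ranges, cells without Clca1 gave more of the fibroblast gene Postn, an expected 155 CPM against 1.02 CPM. They gave less Epcam, an expected 368 against 908 CPM. Postn had 218 UMIs in 21 cells of the whole control gate. The part of this mixture in the comparison was not tested, and only 21 cells without Clca1 lay in the deepest range.

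The genes most like Clca1 across control cells were ranked by correlation. Among 2806 genes seen in at least 5% of 990 thinned cells, the 5 most alike were Wfdc2, a secreted protease inhibitor of epithelium (r = 0.32), Cd24a (0.30), Serpina1e (0.30), Sprr2f (0.30) and Lcn2 (0.28). Correlations this weak in sparse counts describe these cells only, and in a second random thinning 2 of these 5, Sprr2f and Lcn2, were again among the first 5. Lcn2, the secreted iron-binding lipocalin, was found in 86.6% of thinned Clca1 cells and 67.2% of the others, Ltf in 65.7% and 48.0%, and Sprr2f in 83.8% and 60.6%. The other members were held by fewer than 50 thinned cells, so no such list was made for them.

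Chloride channels were read beside Clca1. Ano1, the calcium-activated chloride channel, was seen in 2 of 990 thinned control cells. Neither held Clca1, but 2 cells are too few to describe an overlap. The level of Ano1 was 3.90 CPM (71 UMIs, 41 cells) in the control gate and 61.5 CPM (273 UMIs, 55 of 130 cells) in the cKO gate. That was 15.8-fold higher in cKO (12.1 to 20.8), and the stromal gates held 1.07 and 2.26 CPM. Cftr was seen in 9.39% of thinned Clca1 cells and 2.81% of the others. In the whole gate control stood at 46.8 CPM and cKO at 51.8 CPM, with an interval for the quotient (1.11, 0.954 to 1.28) that includes 1. Cftr was named after its value was seen.

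The members were then read against all genes of the gate. Of 10113 genes with a mean of at least 5 CPM over both libraries, 9.25% were at least 2-fold lower in cKO and 25.3% at least 2-fold higher (median log2 ratio 0.37). Only 2 of the 5 members passed this level, Clca1 and Clca3b, and both were lower, at log2 ratios of -6.74 and -1.66 with a pseudocount of 0.5 UMI. Because the levels chose these genes, nothing is read from that count. A scaling by the trimmed mean of M values (TMM) moved all ratios by 0.57, and under it 19.6% of genes were lower and 13.0% higher. Clca4a was counted 5 times and Clca4b 2 times in the control gate and 0 times in the cKO gate, below the level compared.

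Mucus and secretory genes were mostly lower in the cKO gate. Of 16 measured genes, 10 were past 2-fold lower (62.5%, against 9.25% of all genes) and 3 past 2-fold higher (18.8%, against 25.3%), with a median log2 ratio of -1.57. Under TMM scaling 12 were lower and 3 higher, against 19.6% and 13.0% of all genes. Epithelial markers, at 16121 and 9813 CPM, and fibroblast markers, at 597 and 5500 CPM, move with these counts, and their part was not tested. Lcn2 stood at 4055 CPM in control and 1266 in cKO, Ltf at 1504 and 113, the membrane mucin Muc4 at 446 and 42.8, and Pigr, the transporter of secretory antibodies, at 261 and 14.0. Slpi, a secreted protease inhibitor, was higher at 37.5 and 276 CPM, as was Muc16 at 1.54 and 25.5. Muc16 is also known from mesothelium, whose markers stood at 32.3 and 540 CPM in these gates, and their part was not tested. Genes known from goblet cells differed in level, and those given here were chosen after their values were seen. Agr2, Spdef, Muc5b and Muc2 had 12, 4, 1 and 7 UMIs in the control gate, where Clca1 had 14231. Fcgbp, a mucus protein of goblet cells, had 3611 UMIs in 525 control cells, at 198 CPM in control and 26.6 CPM in cKO.

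Chloride and fluid transport genes differed in both directions, at shares near those of all genes before TMM scaling. Of 35 measured genes, 5 were past 2-fold lower (14.3%, against 9.25% of all genes) and 8 past 2-fold higher (22.9%, against 25.3%), with a median of 0.016. Under TMM scaling 11 were lower (31.4%, against 19.6% of all genes) and 4 higher (11.4%, against 13.0%). The lower genes were led by the water channel Aqp5 (144 and 46.9 CPM), the carbonic anhydrase Car12 (77.8 and 31.8) and the anion transporters Slc26a9 (60.8 and 6.31) and Slc26a4 (21.5 and 5.18). The higher genes included the sodium pump subunit Atp1b1 (70.7 and 229 CPM), the chloride transporter Clcn4 (27.3 and 79.6) and Ano1. The fibroblast markers, at 597 CPM in control and 5500 CPM in cKO, move with these and the following values, and their part was not tested.

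The type 2 cytokine pathway, an inducer of CLCA1 elsewhere, gave 4 lower (36.4%, against 9.25% of all genes) and 2 higher (18.2%, against 25.3%) of 11 measured genes (median -0.90). Il4 and Il13, its cytokines, had 0 UMIs in both gates. The kinase Mapk13 stood at 75.3 CPM in control and 21.9 in cKO, the transcription factor Stat6 at 36.1 and 14.2, and Pparg at 13.5 and 1.13. The receptor Il4ra was 2.26-fold higher in cKO at 113 CPM, and the cytokine Il33 stood at 6.53 and 27.5 CPM. Under TMM scaling 6 were lower (54.5%, against 19.6%) and 1 higher (9.09%, against 13.0%).

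The counts of the remaining lists stand beside 9.25% lower and 25.3% higher over all genes, or 19.6% and 13.0% under TMM scaling. Oestrogen response genes, a list that includes Ltf, were lower in 12 and higher in 3 of 24 (median -1.10). Sprr2f was at 4812 and 1069 CPM and Vegfa at 860 and 242. Progesterone response genes were lower in 0 and higher in 11 of 15 (median 1.87), led by Gpx3 at 34.6 and 326 CPM, and proliferation genes were lower in 0 and higher in 6 of 15 (median 0.33), and 2 and 5 under TMM scaling (median -0.24). Stratified epithelium genes, among which CLCA2 is known, were lower in 1 and higher in 10 of 18 (median 1.16), and 4 and 6 under TMM scaling. At a mean of at least 20 CPM these were 1 and 4 of 12 (median 0.17, against 0.25 over all genes), the progesterone list gave 0 lower and 4 higher of 8 (median 0.97), and 1 proliferation gene was left. The keratin Krt5 rested on 2 cKO cells. Of 20 p53 targets, 5 were lower and 6 higher (median 0.54), and 6 and 2 under TMM scaling, led in mean level by Gdf15 at 683 and 270.4 CPM among the lower and by Trp53 at 57.3 and 131 among the higher, and the median was -0.026 under TMM scaling.

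**Figure D5:**
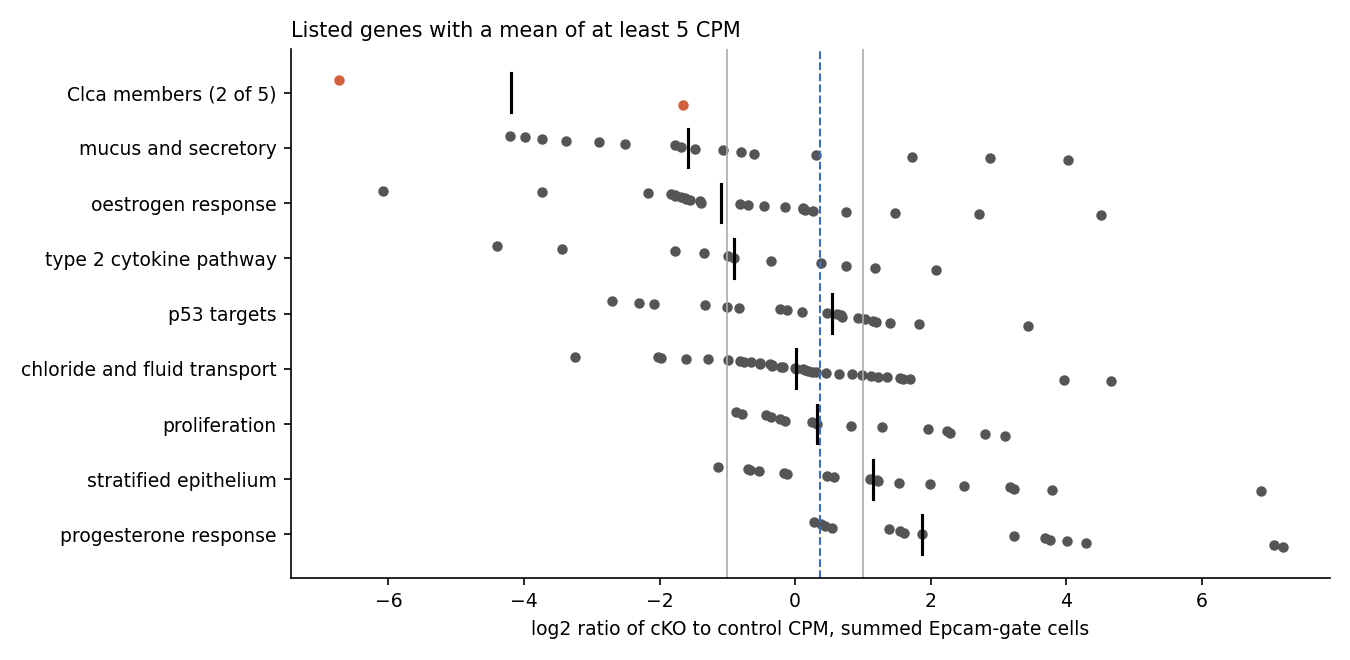
Log2 ratio of cKO to control CPM in the summed epithelial gate (x axis) for each listed gene with a mean of at least 5 CPM, black bars the list medians, the dashed line the median of all 10113 genes (0.37) and grey lines 2-fold. The mucus and oestrogen lists lie mostly to the left of the dashed line and the stratified and progesterone lists mostly to the right, with Clca1 at -6.74.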

How the data were processed

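Whole mouse uteri were digested and captured as 10x single-cell libraries, 1 per group. The authors deposited raw UMI counts per gene and barcode, made with Cell Ranger and mm10; the submitters' processing notes give version 6.1.1, while the file header says 4. The matrices list all barcodes, also those with few UMIs.

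Barcodes with at least 500 genes and at most 20% mitochondrial UMIs were kept, and gates were set on marker UMIs. UMIs were summed per gate and scaled to CPM, with exact Poisson intervals for levels, exact binomial intervals for ratios and Clopper-Pearson intervals for shares (95%). A count of 0 was given a limit of 3 counts. Cells were thinned to 1000 UMIs where depth mattered. Log2 ratios compared across genes or settings carry a pseudocount of 0.5 UMI, and those printed with an interval do not. Scrublet (limit 0.25) marked 1.15% of control and 1.21% of cKO cells, which were left in. Genes named from each list were those past 2-fold with the highest mean CPM, at most 4 per direction; other names were chosen after their values were seen. Some genes under this rule are not reported here. The members and lists were chosen with earlier results of these data known. With 1 library per group no test was made. The 2-fold rule was run on simulated summed counts that vary by counting error only. That simulation held no uneven spread among cells, cell mixture or library difference, so it says nothing of these. Python 3.11.15, numpy 2.4.6, scipy 1.17.1, pandas 2.3.3, scanpy 1.11.5, matplotlib 3.10.9 and Biopython 1.88 were used.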

Additional observations from a re-analysis of the deposited data

How the results depend on the processing

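Of the values that answer a comparison, 65 stayed within their counting interval, or within 1.5-fold for counts, and 33 did not; of the others, such as those of single lists, 40 did and 24 did not. For rare members the interval is so wide that staying within it says nothing of stability. No paired analysis was possible because each group is 1 library, and leaving out a replicate was likewise not possible. The log2 ratio of Clca1 (-6.74) was -6.70 as a mean over cells and -8.07 without Pdgfra-positive cells. It was -4.38 in thinned cells, from 3 cKO UMIs, and -7.47 without the top cell of each library. That of Clca3b (-1.66) was -0.084 in the deepest depth range and -4.11 as a mean over cells. That of Clca3a2 (-0.79) was 0.67 in the deepest range, -3.78 as a mean over cells and -2.38 without the top cells. That of Clca3a1 (0.27) was 1.69 in the deepest range and -2.54 as a mean over cells. The sign thus changed for Clca3a2 and Clca3a1, whose intervals include 1, and also for Clca2 (2.04, from 2 UMIs in each library), which was -0.14 with at least 2 Epcam and 2 Krt8 plus Krt18 UMIs. The deepest range and the keeping of cells over 20% mitochondrial UMIs were chosen after seeing the data. Shares of cells followed the depth. Clca1 in control (28.0%) was 17.7% at 500 UMIs, 50.3% at 3000 and 61.0% unthinned. In cKO (2.31%) it was 0% at 500 UMIs, 1.69% at 3000, 0.769% with another seed and 6.92% unthinned. In control at 500 UMIs and unthinned, Clca3a1 was 0.100% and 2.00%, Clca3a2 0.601% and 5.11%, and Clca3b 0.802% and 8.02%. Clca3b in cKO was 0% at 500 UMIs and 0% with another seed. Clca3a1 in control immune cells (1.66 CPM) was 0.788 CPM with 2 Ptprc UMIs required. The share of Clca3b cells with Clca3a2 (18.2%) was 0% when presence needed 2 UMIs, a setting in which no thinned cell held Clca3a2 and which therefore shows nothing (3 of 12 at 3000 UMIs), and 50% and 42.9% unthinned in the shallowest depth ranges. Over all genes, 935 were lower and 2557 higher in cKO; these were 439 and 1290 at 3-fold, 1981 and 1319 with TMM scaling, and 581 and 1138 at a mean of at least 20 CPM. Subtracting cell-free RNA gave no value, because the stromal genes used to set the cell-free share stood at 5136 CPM in the cKO gate and 3846 CPM in cell-free barcodes, which puts that share at 133.5%, above the whole. The causes of these shifts were not tested. Low counts in the cKO gate limit all members, with 32 UMIs for Clca1 and at most 28 for each of the others.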
